A study of Mus musculus with 8 samples.

Results

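The mouse mitochondrial genome is a small circular DNA that carries its own ribosomal RNAs, transfer RNAs and a few subunits of the respiratory chain. Its genes were taken as all entries of the count files placed on chromosome MT, which gave 37 of 48831 genes. They comprise 13 protein-coding genes, 2 ribosomal RNA (rRNA) genes and 22 transfer RNA (tRNA) genes. The coding genes supply 7 subunits of complex I (NADH dehydrogenase), 1 of complex III, 3 of complex IV (cytochrome c oxidase) and 2 of complex V (ATP synthase). The levels of these genes played no part in choosing them.

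RNA was sequenced from vomeronasal epithelium, which carries the sensory neurons that detect pheromones in mice. All mice were C57BL/6J animals aged 8 weeks, and the 8 libraries formed 4 groups of 2. These were flushed tissue of 1 male (replicates 1 and 3), flushed tissue of 1 female (replicates 2 and 3), non-flushed pools of 2 males and non-flushed pools of 2 females. The libraries were separate mice or separate pools of mice, per the labels. Flushing here means clearing blood from the vessels with heparin, and the protocol shared by all labels states it for every mouse, whereas the descriptions name the pools as non-flushed. The descriptions were used. Preparation coincides with the number of mice per library, with the lane number of the sequencing run and with the dated project directory in the file headers, so that these cannot be told apart.

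Both strands of the mitochondrial genome are transcribed from the control region into long precursor RNAs. The tRNAs lie between most of the other genes, and their excision releases the messenger RNAs and rRNAs. Most mitochondrial messenger RNAs then receive a short poly(A) tail, which in several of them also completes the stop codon. The libraries were made after polyA selection with a stranded kit, so a count depends on the adenylation of a transcript as well as its amount, and RNAs without a tail are mostly lost. In human cells the messenger RNA of ND6 is known to lack such a tail.

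Total counts were 22101913 to 24965088 in flushed libraries and 18763557 to 22096792 in pools. Counts of Y-linked genes and of Xist fitted the labelled sex in 8 of 8 libraries. The vomeronasal neuron markers Omp, Gnai2 and Gnao1 were detected in every library. Trpc2, the channel that defines these neurons, was listed at 0 in all 8 libraries. Its annotated locus overlaps other genes, and reads overlapping more than 1 gene were not counted, per the file headers. In bulk tissue, fewer cells of a type and less RNA per cell cannot be told apart.

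Neighbouring mitochondrial genes lie end to end or overlap, and this limits which reads could be counted. The sequences below, 5′ to 3′ on the plus strand of GRCm38 and taken from GENCODE M21 transcripts, show the 2 overlaps between coding genes, with the shared bases in capitals. The first lies at MT:7918-7978 and the second at MT:10158-10182.
mt-Atp8/mt-Atp6 overlap: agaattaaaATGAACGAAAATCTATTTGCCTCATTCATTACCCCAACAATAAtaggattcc
mt-Nd4l/mt-Nd4 overlap: cctactacaATGCTAAaaattattc
In both pairs the shared stretch, of 43 and 7 bases, opens with the ATG start codon of the downstream gene and ends with the TAA stop codon of the upstream gene. A read of 100 bases that touches 2 genes on the same strand was left out of the counts. Of 303 positions at which such a read would overlap mt-Atp8 (MT, 7766 to 7969), 63 overlap no other gene on the strand, or 20.8%. The share was 48.5% for mt-Nd4l and 98.2% for mt-Co1, so less of mt-Atp8 and of mt-Nd4l could be counted per base than of mt-Co1.

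The 3′ ends of 5 coding genes are shown because they differ in how the stop codon is made. The capitals mark the last base where the coding length leaves 1 base over a multiple of 3, and the whole stop codon otherwise.
mt-Co3 3′ end: tgatgaggatctT
mt-Nd4 3′ end: ggcctgacaataT
mt-Cytb 3′ end: aaattatatccaT
mt-Co1 3′ end: aaagtaaaaTAA
mt-Nd5 3′ end: aatctcgagTAA
These ends lie at MT:9378-9390, MT:11532-11544, MT:15276-15288, MT:6861-6872 and MT:13554-13565. In 3 genes (mt-Co3, mt-Nd4 and mt-Cytb) the annotated gene stops at a lone T, to which a poly(A) tail adds the rest of TAA. The other 10 coding genes have lengths that are multiples of 3.

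Mitochondrial genes held a larger share of the counts in flushed tissue than in pools. The share was 0.572 and 0.597% of all counts in flushed males and 0.693 and 0.569% in flushed females. It was 0.284 and 0.272% in male pools and 0.282 and 0.322% in female pools. The lowest flushed library lay well above the highest pool, and the means were 0.607 ± 0.0584% in flushed libraries and 0.290 ± 0.0222% in pools (SD, n = 4 libraries each), a ratio of 2.09. The difference passed a two-sided exact permutation test (p = 0.0286, adjusted p = 0.0464 over 13 shares), whose p was the smallest that 70 splits of 4 against 4 allow.

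Coding and rRNA genes accounted for nearly all of these counts, and the rRNAs differed more between preparations. The rRNA genes held 0.221 ± 0.0420% of all counts in flushed libraries and 0.0748 ± 0.0123% in pools, a ratio of 2.95. The coding genes held 0.387 ± 0.0258% in flushed libraries and 0.215 ± 0.0182% in pools, a ratio of 1.80. Neither class overlapped between preparations (exact permutation adjusted p = 0.0464 for each). Of mitochondrial counts the rRNAs took 38.3 and 35.2% in flushed males and 40.1 and 31.1% in flushed females, against 30.0 and 25.7% in male pools and 21.2 and 26.2% in female pools. These shares too did not overlap, although female flushed 3 and male pool 1 lay close together (exact permutation adjusted p = 0.0464). The 22 tRNA genes held 0.000122 ± 0.0000352% in flushed libraries and 0.000189 ± 0.000145% in pools, with overlapping values (exact permutation adjusted p = 0.495).

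**Figure D1:**
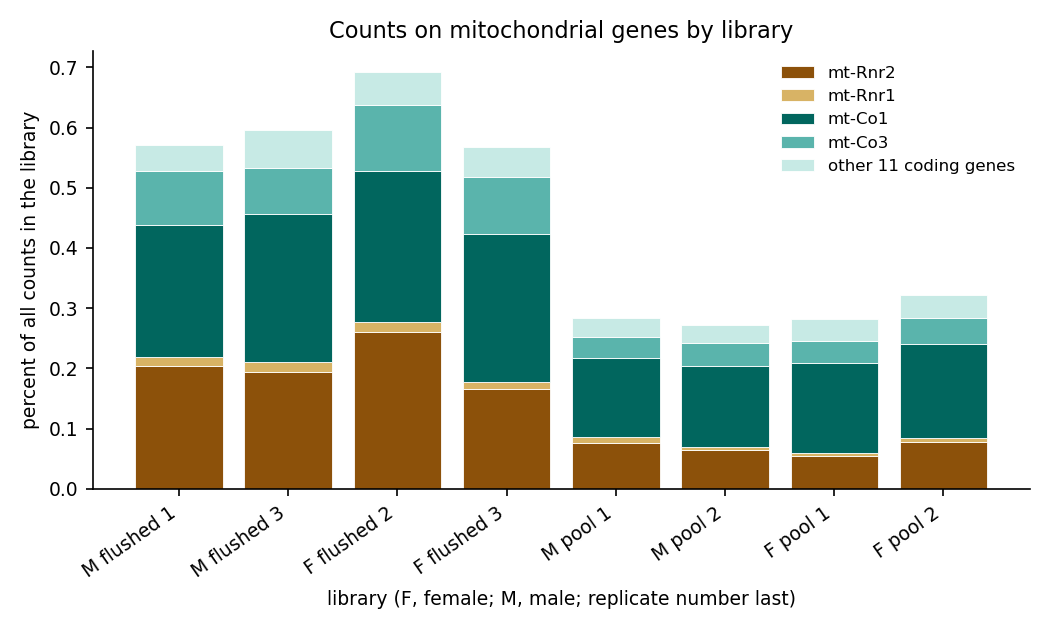
Percent of all counts in each library (vertical axis) held by mt-Rnr2, mt-Rnr1, mt-Co1, mt-Co3 and the other 11 coding genes; the tRNA genes are too low to be seen. The 4 flushed libraries reach between 0.569 and 0.693%, above the 4 pools at 0.272 to 0.322%.

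The genes mt-Co1, mt-Rnr2 and mt-Co3 carried most of the mitochondrial counts. Together they held 86.5 to 89.6% of them in flushed libraries and 84.7 to 86.9% in pools, with the other 34 genes sharing the rest. The gene mt-Co1, the catalytic subunit of complex IV (MT, 5328 to 6872, plus strand), held 39.8 ± 3.28% of mitochondrial counts in flushed libraries and 49.3 ± 2.61% in pools. The large rRNA mt-Rnr2 (MT, 1094 to 2675, plus) held 33.7 ± 3.70% in flushed libraries and 23.3 ± 3.22% in pools. The complex IV subunit mt-Co3 (MT, 8607 to 9390, plus) held 15.2 ± 1.70% in flushed libraries and 13.1 ± 0.892% in pools.

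Levels were compared between genes as counts per kb of full gene length per 1000000 counts of the library, which takes no account of the positions where a read could not be counted. In flushed libraries the order of the mean was mt-Co1 (1558), mt-Rnr2 (1301) and mt-Co3 (1176), and neighbours among these overlapped across libraries. A gap followed to mt-Co2 (225), a copper-binding subunit of complex IV, which overlapped with neither neighbour in the order. Next in the mean level per kb in flushed libraries came mt-Rnr1 (156), mt-Nd3 (107), mt-Atp6 (90.5), mt-Cytb (88.6) and mt-Nd1 (69.9), each overlapping with the next. The lowest were mt-Nd4 (32.7), mt-Nd5 (27.1), mt-Nd2 (13.9), mt-Nd6 (7.95), mt-Nd4l (5.26) and mt-Atp8 (4.58), of which mt-Nd4 overlapped with mt-Nd5 and mt-Nd4l with mt-Atp8.

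The pools gave a similar order with a change near the top. Mean levels per kb per 1000000 counts in pools were 925 for mt-Co1, which overlapped with no other gene, 485 for mt-Co3 and 428 for mt-Rnr2. The libraries of mt-Co3 and mt-Rnr2 overlapped in pools, as they did in flushed tissue. The gene mt-Co2 stood at 169 per kb, mt-Rnr1 at 74.0 and mt-Nd3 at 62.2. At the low end stood mt-Nd2 (7.10), mt-Nd6 (6.66), mt-Nd4l (2.94) and mt-Atp8 (2.23). Genes that lie close together on the same strand differed widely: mt-Co1 exceeded mt-Nd2, and mt-Co3 exceeded mt-Nd4, in each of the 8 libraries.

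The low end of this order depends on what the counts are divided by. Per 1000 positions at which a read could be assigned, rather than per kb of gene, mt-Atp8 stood at 14.8 counts per 1000000 in flushed libraries and 7.20 in pools, above mt-Nd6 at 7.95 in flushed libraries and 6.66 in pools. On that measure mt-Atp8 overlapped with mt-Nd2 in both preparations and with mt-Nd6 in pools. The gene mt-Nd4l (8.14 in flushed libraries and 4.55 in pools) overlapped with mt-Nd6 in flushed libraries. The genes mt-Co1, mt-Rnr2 and mt-Co3 were the highest by either measure.

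**Figure D2:**
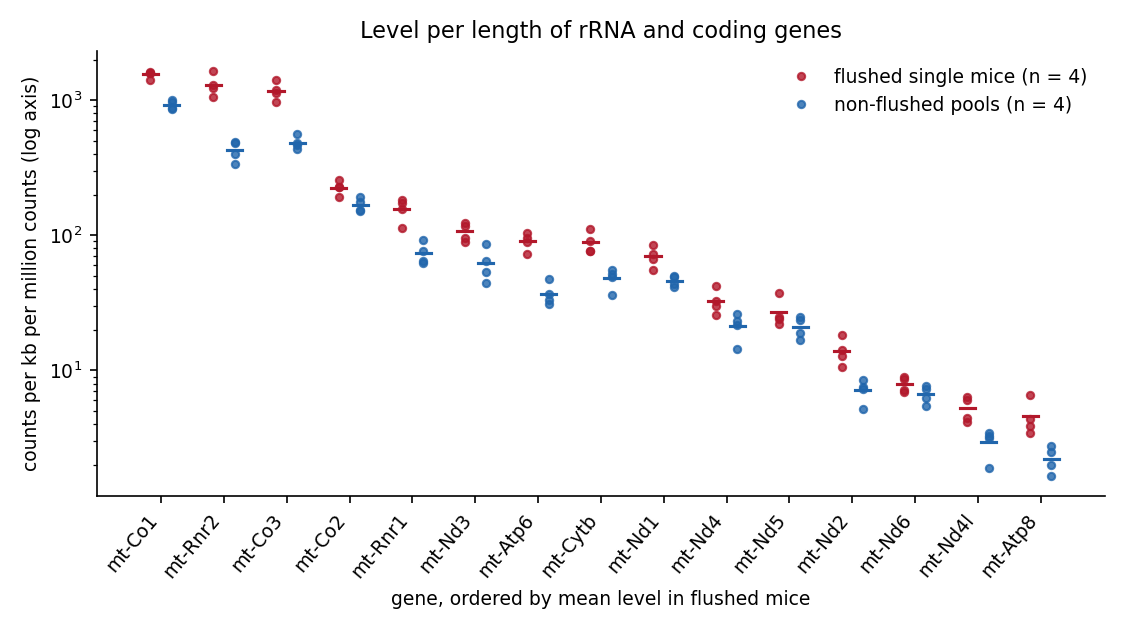
Counts per kb of gene length per 1000000 counts (vertical log axis, full gene length) for the 2 rRNA and 13 coding genes, ordered by the flushed mean; points are libraries and lines are means of 4. Levels in flushed libraries run from 1558 for mt-Co1 to 4.58 for mt-Atp8.

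The nuclear genome holds copies of mitochondrial DNA, and reads that fit both were divided evenly between them, per the file headers. In all, 14 nuclear gene models shared at least 50 consecutive bases with a mitochondrial gene on the same strand, 7 of them on chromosome 1. The model Gm28437 matched mt-Co3 over 783 bases with 0 mismatches. It held 50.01 to 50.02% of the summed counts of the pair, and the counts of the pair differed by at most 18.7. The models Gm28661 (mt-Co2), Gm28438 (mt-Nd3) and Gm10222 (mt-Nd4l) likewise held between 50 and 50.6% of the summed counts of their pairs. The reads of such a pair cannot be told apart.

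Other copies took a smaller or an uneven part. The model Gm10925 held 52.3 to 54.4% of the summed counts of itself and mt-Atp6, and Gm29216 held 20.05 to 22.96% of those of itself and mt-Co1. The sum for Gm29216 includes reads of the parts of mt-Co1 that this model does not cover. Why Gm10925 held more counts than mt-Atp6 was not tested. Gm13340 on chromosome 2 spans mt-Co1 with 37 mismatches in 1545 bases and held 3.99 to 7.15% of the summed counts of the pair. It did not differ between preparations past the threshold (log2 flushed minus pool = -0.12, edgeR adjusted p = 0.257), whereas mt-Co1 did. The models Gm13341 and Gm28439 had larger preparation differences than the whole mitochondrial gene each matches. Gm13341 on chromosome 2 matches mt-Co2 over 672 bases, with 173 mismatches in an alignment without gaps. It differed by 1.49 on the log2 scale (edgeR adjusted p = 8.4e-05). Gm28439 on chromosome 1, which matches mt-Nd4 over 876 bases with 0 mismatches, differed by 1.42 on that scale (edgeR adjusted p = 0.00018). Reads that fit both were divided evenly, so the counts of Gm28439 cannot be told apart from reads of that stretch of mt-Nd4. Gm13341 also shares exact stretches of sequence with mt-Co2 and had counts that were not whole, such as 175.66 in female flushed 2. Some of its reads were thus divided over more than 1 alignment. How many of them fit mt-Co2 was not tested, so its difference cannot be assigned to a separate nuclear transcript. The log2 differences of mt-Co2 and mt-Nd4 were 0.31 and 0.51, and the gap between copy and gene was not tested. No read-long window of mt-Rnr1, mt-Rnr2, mt-Nd1, mt-Atp8, mt-Nd5, mt-Nd6 or mt-Cytb lay in such a model. Even so, mt-Rnr2, mt-Atp8 and mt-Nd5 had counts that were not whole, such as 22.33 for mt-Atp8 in male flushed 1. Some of their reads were thus divided over more than 1 alignment. Copies outside annotated transcripts were not examined, so what these genes lost to them is not known.

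Adding the copies back raised the level and left the preparation difference close to its earlier size. The mitochondrial share became 0.801 ± 0.0716% of all counts in flushed libraries and 0.396 ± 0.0307% in pools, a ratio of 2.02 (exact permutation adjusted p = 0.0464). The order by length changed: with copies added, mt-Co3 stood first in flushed libraries at 2353 counts per kb per 1000000, against 2027 for mt-Co1, and the libraries of these genes overlapped. In pools mt-Co1 remained first at 1251, against 971 for mt-Co3. At the low end, mt-Nd4l with copies added stood above mt-Nd6 in flushed libraries, at 10.5 and 7.95 per kb, and the libraries of these genes overlapped.

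**Figure D3:**
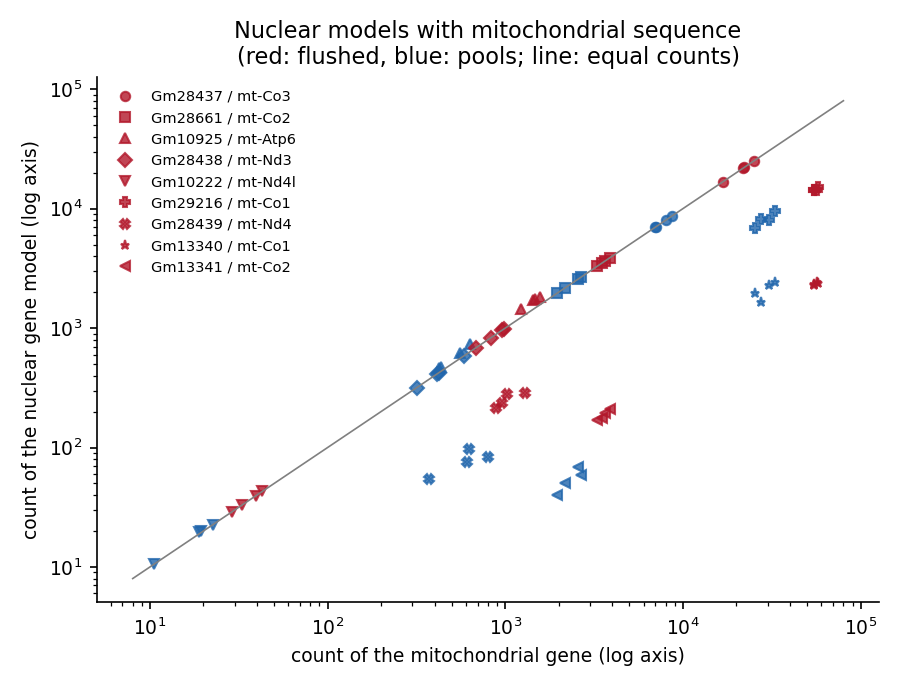
Count of 9 nuclear gene models (vertical log axis) against the count of the mitochondrial gene each shares sequence with (horizontal log axis), with 1 point per library. Models that hold 50 to 50.6% of the summed counts of a pair lie on the line of equal counts, and Gm13340 and Gm13341 lie far below it.

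Of the 37 genes, 16 had enough counts to be tested: the 13 coding genes, both rRNAs and the tRNA mt-Tt. The edgeR quasi-likelihood test, with sex as a covariate, called 13 of them higher and 1 lower in flushed libraries than in pools. The gene called lower was mt-Tt, which passed the filter through male pool 2 and female pool 2, where it was high. It kept its call in 2 of 8 fits without a library. Across all 20601 tested genes, 45.5% were called in either direction, 22.6% higher and 22.9% lower. DESeq2 called 10 members higher and 1 lower, against 20.5% higher and 20% lower of all genes (40.5% in all), and limma-voom called 12 higher and 0 lower, against 22.5 and 22.8% (45.3% in all). The median log2 difference of the 16 genes was 0.70, against -0.02 over all genes. Within each sex the counts were 10 higher in males and 6 higher in females, with 0 lower in either. Of all tested genes, 24.7% were called in males (13.6% higher and 11.1% lower) and 26.9% in females (14.2% higher and 12.6% lower).

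The rRNAs, which form the cores of the mitochondrial ribosome, included the largest positive difference. The large rRNA mt-Rnr2 had 2019 and 1922 counts per 1000000 (CPM) in flushed males and 2480 and 1517 in flushed females, against 851 and 686 in male pools and 525 and 770 in female pools. Every flushed library exceeded every pool, and the log2 difference was 1.49 (SE 0.17, 2.81-fold, edgeR adjusted p = 9.7e-05). The small rRNA mt-Rnr1 (MT, 70 to 1024, plus) had 147 and 165 CPM in flushed males and 166 and 98.9 in flushed females, against 98.6 and 66.4 in male pools and 58.5 and 72.8 in female pools. The groups came within 1 CPM of each other without overlapping (log2 difference 0.97, SE 0.16, edgeR adjusted p = 0.0011).

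The 2 rRNAs come from the same stretch of precursor but did not differ by the same amount. The gene mt-Rnr1 held 6.80 and 7.92% of rRNA counts in flushed males and 6.26 and 6.12% in flushed females, against 10.4 and 8.82% in male pools and 10.0 and 8.64% in female pools. Every flushed library was below every pool (exact permutation adjusted p = 0.0464). The tRNA mt-Tv, which lies between the 2 rRNA genes, had a single count in 1 pool and none elsewhere.

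All 3 complex IV genes were higher in flushed libraries, by unequal amounts. The gene mt-Co3 had 880 and 752 CPM in flushed males and 1054 and 856 in flushed females, against 378 and 404 in male pools and 355 and 444 in female pools. Its log2 difference was 1.16 (SE 0.10, 2.23-fold, edgeR adjusted p = 3.2e-05), the smallest adjusted p of the 16 genes. The gene mt-Co1 averaged 2316 ± 128 CPM in flushed libraries and 1485 ± 47.0 in pools (SD, n = 4 each, log2 difference 0.64, edgeR adjusted p = 4.1e-05). The gene mt-Co2 (MT, 7013 to 7696, plus) averaged 148 ± 18.5 CPM in flushed libraries and 120 ± 8.51 in pools, and these overlapped (log2 difference 0.31, edgeR adjusted p = 0.018). Without male pool 2 or female pool 1, mt-Co2 missed the threshold (edgeR adjusted p = 0.053 and 0.057).

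The complex V genes, which encode the membrane part of ATP synthase, were both higher. The gene mt-Atp6 (MT, 7927 to 8607, plus), which forms part of the proton channel, had 48.8 and 70.5 CPM in flushed males and 62.2 and 55.9 in flushed females, against 23.4 and 24.2 in male pools and 24.5 and 32.5 in female pools. The lowest flushed library lay well above the highest pool (log2 difference 1.19, SE 0.13, 2.28-fold, edgeR adjusted p = 8.2e-05). Its overlapping neighbour mt-Atp8 rests on 15.5 to 30.5 counts in flushed libraries and 7 to 11 in pools. Its log2 difference of 0.90 (SE 0.30, edgeR adjusted p = 0.033) was called in 3 of 8 fits that left out a library (without male flushed 3, female flushed 3 or male pool 2), and not by DESeq2 (adjusted p = 0.11).

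Cytochrome b, the only complex III subunit in this genome (mt-Cytb, MT, 14145 to 15288, plus), had 86.1 and 126 CPM in flushed males and 99.2 and 80.1 in flushed females, against 65.8 and 44.3 in male pools and 62.0 and 55.9 in female pools. The groups did not overlap (log2 difference 0.77, SE 0.15, edgeR adjusted p = 0.0024).

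Of the 7 complex I genes 5 were higher and 2 did not pass. The gene mt-Nd2 (MT, 3914 to 4951, plus) averaged 14.0 ± 3.46 CPM in flushed libraries and 7.64 ± 1.30 in pools (log2 difference 0.86, edgeR adjusted p = 0.0037). The gene mt-Nd3 averaged 35.7 ± 4.61 CPM in flushed libraries and 22.4 ± 5.94 in pools (0.67, edgeR adjusted p = 0.0041), and mt-Nd1 averaged 64.5 ± 12.4 CPM in flushed libraries and 45.9 ± 1.46 in pools (0.49, edgeR adjusted p = 0.0064). None of these 3 genes overlapped between preparations.

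The calls of the other complex I genes were less secure. The gene mt-Nd4l had 29 to 43 counts in flushed libraries and 10.5 to 22.5 in pools (log2 difference 0.73, edgeR adjusted p = 0.041), and of 8 fits without a library it was called in 2, those without female flushed 3 or male pool 1. The gene mt-Nd4 averaged 43.5 ± 10.3 CPM in flushed libraries and 30.4 ± 6.11 in pools, with overlap (log2 difference 0.51, edgeR adjusted p = 0.039), and lost its call without male flushed 3, female flushed 2, male pool 2 or female pool 2. DESeq2 called neither gene (adjusted p = 0.088 and 0.072). The gene mt-Nd5 (MT, 11742 to 13565, plus) had 39.9 and 67.9 CPM in flushed males and 43.3 and 40.3 in flushed females, against 48.4 and 32.7 in male pools and 44.6 and 34.7 in female pools. These groups overlapped, and the log2 difference was 0.24 (SE 0.17, edgeR adjusted p = 0.29).

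The gene mt-Nd6 is the only coding gene on the minus strand (MT, 13552 to 14070), also called the light-strand-encoded gene. It had 4.44 and 3.60 CPM in flushed males and 4.46 and 3.41 in flushed females, against 4.22 and 3.503 in male pools and 3.90 and 2.81 in female pools. The groups overlapped throughout (log2 difference 0.14, SE 0.16, edgeR adjusted p = 0.50). The 9 minus-strand genes together held 0.0757 ± 0.00718% of mitochondrial counts in flushed libraries and 0.129 ± 0.0263% in pools, with every flushed library below every pool (exact permutation adjusted p = 0.0464).

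The library male flushed 3 lay at an end of the flushed range for most genes. It had the highest CPM of the 4 for mt-Nd1, mt-Nd2, mt-Nd4, mt-Nd5, mt-Cytb, mt-Atp6, mt-Co1 and mt-Co2, and the lowest for mt-Co3, mt-Nd3 and mt-Atp8. Without it, the difference of mt-Nd5 was 0.03 and that of mt-Nd4 was 0.30.

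Counted by overlap, 11 of the 16 genes had every flushed library above every pool in CPM and 0 had every flushed library below. Among all tested genes these shares were 21.3 and 20.4%. Expressed instead as percent of mitochondrial counts, only mt-Rnr2 had every flushed library above every pool. By that measure mt-Nd1, mt-Co1, mt-Co2, mt-Nd6 and mt-Tt had every flushed library below every pool.

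**Figure D4:**
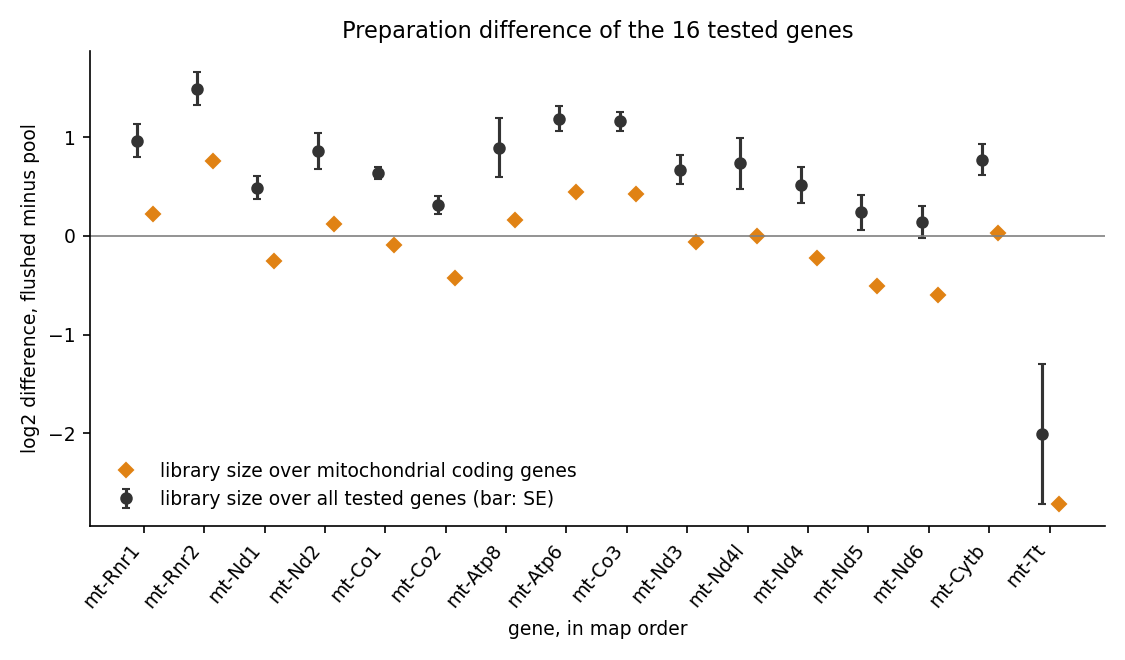
Log2 difference, flushed minus pool (vertical axis), of the 16 tested genes in map order, with the library size taken over all tested genes (circles, bars are SE) or over mitochondrial coding genes (diamonds). With the first scaling 15 of 16 values lie above 0, and with the second mt-Rnr2 is the highest at 0.76 and mt-Tt the lowest.

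Scaled to the sum of the coding genes, each of the 16 log2 differences was lower by 0.71 to 0.74 than with the scaling over all tested genes. The spread among the genes was therefore nearly the same, and which of them count as higher or lower follows from where that scaling puts zero. On that scale mt-Rnr2 (log2 difference 0.76), mt-Atp6 (0.45) and mt-Co3 (0.43) were called higher in flushed libraries. The genes mt-Nd6 (-0.59), mt-Nd5 (-0.50), mt-Co2 (-0.43), mt-Nd1 (-0.25) and mt-Tt (-2.72) were called lower by edgeR. Of these, mt-Tt passed the filter through male pool 2 and female pool 2. The shares of all tested genes called, given above for the main fit, do not apply on this scale. Among coding counts, complex V held 1.61 ± 0.178% in flushed libraries and 1.19 ± 0.140% in pools, without overlap (exact permutation adjusted p = 0.0464). Complex IV held 90.1 ± 1.40% in flushed libraries and 89.5 ± 0.894% in pools, and complex III held 2.62 ± 0.458% in flushed libraries and 2.55 ± 0.433% in pools, both overlapping (exact permutation adjusted p = 0.495 and 0.886). Complex I held 5.65 ± 0.792% in flushed libraries and 6.76 ± 0.515% in pools (exact permutation adjusted p = 0.111).

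The 22 tRNA genes, of 59 to 75 bases, were almost absent from the counts: all of them in all 8 libraries held 261.65 counts. Of the 22 genes, 7 were at 0 in every library (mt-Tf, mt-Tl1, mt-Tc, mt-Tk, mt-Tr, mt-Ts2 and mt-Tl2), and a count of 0 allows up to 0.120 to 0.160 counts per 1000000, taking 3 counts as the limit (counting error only). For 8 plus-strand tRNA genes no 100-base read could overlap the gene alone, and these held 2.5 counts in all (mt-Tv, mt-Tl1, mt-Tk, mt-Tg, mt-Tr, mt-Th, mt-Ts2 and mt-Tl2). The 6 other plus-strand tRNA genes (mt-Tf, mt-Ti, mt-Tm, mt-Tw, mt-Td and mt-Tt) held 195.66 counts. For mt-Tf (MT, 1 to 68) every such read would cross the start of the MT sequence, taken here as circular. Whether a read of that kind could be counted was not tested, so its 0 says little about its level. The 8 minus-strand ones (mt-Tq, mt-Ta, mt-Tn, mt-Tc, mt-Ty, mt-Ts1, mt-Te and mt-Tp) held 63.49.

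The tRNAs mt-Tt and mt-Tw, both on the plus strand and 67 bases long, are printed because they had their higher counts in different preparations. No capitals are used in them.
mt-Tt: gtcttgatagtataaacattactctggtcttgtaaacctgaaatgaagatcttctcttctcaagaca
mt-Tw: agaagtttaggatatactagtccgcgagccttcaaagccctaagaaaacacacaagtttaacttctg
The tRNA for threonine, mt-Tt (MT:15289-15355), directly follows mt-Cytb. It had 10 and 3 counts in flushed males and 15 and 7 in flushed females, against 7 and 36 in male pools and 8 and 61 in female pools. The excess lay in male pool 2 and female pool 2, and the other pools overlapped with the flushed libraries. Its log2 difference of -2.005 (SE 0.71, edgeR adjusted p = 0.041) was called in 2 of 8 fits without a library, those without male pool 1 or female pool 1, and not by limma-voom (adjusted p = 0.18). The gene passed the filter through these pools. Without female pool 2 the difference was -1.21 (edgeR adjusted p = 0.23) and without male pool 2 it was -1.49 (edgeR adjusted p = 0.16).

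The tRNA for tryptophan, mt-Tw (MT:4950-5016), directly follows mt-Nd2. It had 5 and 3 counts in flushed males and 5 and 8 in flushed females, against 0 in both male pools and 0 and 1 in female pools. Every flushed library was above every pool, but the gene did not pass the filter on low counts. The tRNA genes other than mt-Tt held 78.33 counts in flushed libraries and 36.32 in pools.

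Most subunits of the respiratory complexes are encoded in the nucleus and imported. Of 81 such genes listed for complexes I to V, 78 were tested, and 1 was higher and 49 were lower in flushed libraries than in pools, with a median log2 difference of -0.32. Over all 20601 tested genes 22.6% were higher and 22.9% lower, with a median of -0.02. Of the 13 mitochondrial coding genes 11 were higher and 0 lower, with a median of 0.67. The numbers lower were 25 of 36 for complex I, 5 of 9 for complex III, 7 of 15 for complex IV and 12 of 14 for complex V, or 7 of 14 without male pool 2. Complex II, which has no subunit in the mitochondrial genome, had 0 of 4 called.

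The nuclear subunit genes with the smallest p included the following. Ndufa8 of complex I fell by 0.75 on the log2 scale (SE 0.08, edgeR adjusted p = 6.3e-05) and Ndufb8 by 0.62 (edgeR adjusted p = 5.8e-05). Uqcr11 of complex III fell by 0.53 (edgeR adjusted p = 0.00015), Cox6a1 of complex IV by 0.66 (edgeR adjusted p = 0.00013) and Atp5k of complex V by 0.72 (edgeR adjusted p = 0.00026). Sdhb, an iron-sulfur subunit of complex II, had a difference of -0.18 (edgeR adjusted p = 0.051).

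**Figure D5:**
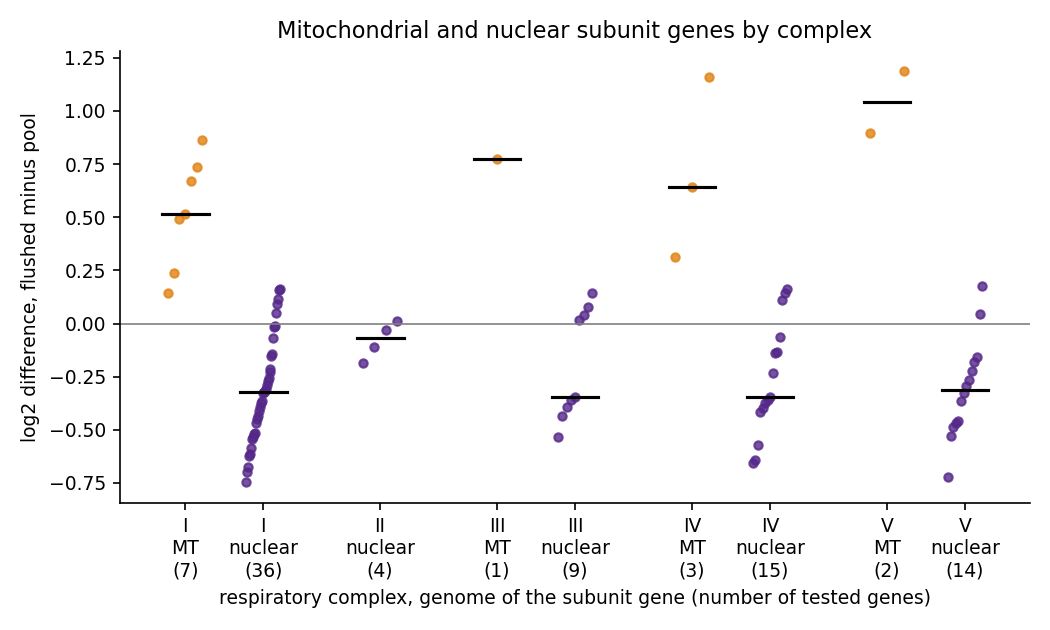
Log2 difference, flushed minus pool (vertical axis), of mitochondrial (MT) and nuclear subunit genes of each respiratory complex, with 1 point per tested gene and a line at the median. Mitochondrial genes lie above 0 in each complex that has them, and nuclear medians lie below 0, at -0.32 over all 78 genes.

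The proteins that transcribe, process and translate mitochondrial RNA are also nuclear. Of 77 tested genes of mitochondrial ribosomal proteins, 34 were lower and 3 higher in flushed libraries, among them Mrps21 (log2 difference -0.68) and Mrpl1 (0.66). Of 20 genes of RNA processing, modification and decay, 8 were higher and 4 lower, with 2 lower without female flushed 3 or male pool 2. The higher ones included Pnpt1, a polynucleotide phosphorylase of RNA turnover (0.75, edgeR adjusted p = 9.9e-05), Ptcd3 (0.57, edgeR adjusted p = 6.6e-05), which binds the small ribosomal subunit, and Fastkd2 (0.55, edgeR adjusted p = 0.00034), which binds the large rRNA in human cells.

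Fewer genes of mitochondrial transcription were called. Of 17 genes of transcription and mitochondrial DNA maintenance 3 were higher and 1 lower, with 1 higher without female flushed 3, male flushed 1 or female pool 1. They included Mterf3 (0.55, edgeR adjusted p = 2e-04), a regulator of mitochondrial transcription, and Polg, the DNA polymerase (-0.18, edgeR adjusted p = 0.032). Of 19 synthetases that charge tRNAs in mitochondria 4 were higher and 5 lower, and these counts moved to as few as 1 and 1 in fits without a library. Of 9 regulators of mitochondrial biogenesis 1 was higher, Ppargc1a (0.45), and 1 lower, Esrra (-0.40). The share of genes called over all tested genes, 22.6% higher and 22.9% lower, applies to each of these lists.

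Markers of other cell types were also compared between preparations, and their part in the mitochondrial differences was not tested. Over all tested genes 22.6% were called higher and 22.9% lower in flushed libraries. The skeletal muscle and ciliated cell lists lay near that share. Erythroid genes were lower in flushed libraries in 9 of 9, with summed CPM of 108 to 626 in flushed libraries and 1654 to 2072 in pools. Neutrophil genes were lower in 8 of 8, or in 3 to 8 of them in fits without a library, with 3 without female flushed 2 (6585 to 9031 CPM in flushed libraries, 8586 to 11730 in pools). Of that neutrophil sum 97.3 to 99.5% was Ltf, lactoferrin, also a protein of gland secretions and singled out here after its values were seen. The other 7 genes summed to 31.3 to 172 CPM in flushed libraries and 212 to 318 in pools, without overlap. Fibroblast and matrix genes were lower in 5 of 8 and higher in 2 (17640 to 23261 CPM in flushed libraries, 36468 to 47022 in pools). Skeletal muscle genes, of a tissue rich in mitochondria, were lower in 2 of 8 (6 of 8 without male flushed 1) and summed to 5.80 to 22.2 CPM in flushed libraries and 11.6 to 26.1 in pools. Vomeronasal neuron genes were lower in 3 (1 without male pool 2 or female pool 2) and higher in 1 of 8 (1066 to 1136 CPM in flushed libraries, 1111 to 1312 in pools). Sustentacular and secretory genes were lower in 5 of 8 (78695 to 125111 CPM in flushed libraries, 97402 to 166711 in pools), and ciliated cell genes were lower in 2 of 7, or in 0 to 4 without a library (429 to 822 CPM in flushed libraries, 522 to 727 in pools). No listed marker other than Trpc2 was at 0 in every library.

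Sex was not associated with a called difference in any mitochondrial gene. Males had 0.572 and 0.597% of counts on mitochondrial genes when flushed and 0.284 and 0.272% in pools, and females had 0.693 and 0.569% when flushed and 0.282 and 0.322% in pools. The sexes overlapped within flushed tissue and within pools. Of the 16 tested genes, edgeR called 0, with 0 at an unadjusted p under 0.05, and DESeq2 also called 0. Of all tested genes edgeR called 0.116% (24 genes), 0.0825% higher and 0.034% lower in males, and DESeq2 called 0.602%, 0.437% higher and 0.165% lower. The largest difference in either direction was that of mt-Tt (-0.56 on the log2 scale, male minus female, with SE 0.70 and an edgeR adjusted p of 0.89), and among the others it was mt-Rnr1 (0.29, SE 0.16, edgeR adjusted p = 0.71). With no filter on low counts mt-Rnr1 was called (edgeR adjusted p = 0.0051). All 13 shares had an exact permutation adjusted p of 0.929 or more. That test took no account of preparation, so the spread within each sex included the difference between flushed libraries and pools. It therefore cannot decide whether the shares of the sexes were alike.

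The preparation difference was also compared between the sexes through an interaction term, male minus female. No mitochondrial gene passed (0 of 16 with edgeR, and 0 at an unadjusted p under 0.05), against 0.0485% of all tested genes (10 genes, 0.0291% with a positive and 0.0194% with a negative term). The log2 interaction ranged from -0.29 for mt-Atp8 to 0.50 for mt-Nd4. For mt-Rnr2 the preparation difference was 1.36 (SE 0.24) in males and 1.63 (SE 0.24) in females, and for mt-Co3 it was 1.06 (SE 0.14) in males and 1.26 (SE 0.14) in females. For mt-Cytb it was 0.95 (SE 0.21) in males and 0.60 (SE 0.21) in females. Each group of this test holds 2 libraries, and a p that misses the threshold does not show that the sexes were alike. The erythroid markers passed the interaction test in 5 of 9 genes.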

How the data were processed

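The authors deposited expected counts per gene: per the file headers, a multi-mapping read was split into equal fractions over its alignments. Reads of 100 nucleotides were placed on GRCm38 (STAR 2.7.1a) and assigned to genes by featureCounts 1.6.5, per the submitters' processing notes. Counting was reverse stranded over exons with a minimum overlap of 1 base and left out reads overlapping more than 1 gene, per the file headers. Duplicate reads could not be recognised.

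Rounded counts entered edgeR 4.0.16 (R 4.3.3, quasi-likelihood test, TMM, filterByExpr, sex and preparation as additive terms, Benjamini-Hochberg threshold 0.05 over 20601 genes). CPM values were computed from the deposited counts with the TMM-scaled library size. Shares used all counts and exact permutation tests that went through every split of the libraries. P-values measure the spread between these libraries. Alternatives were DESeq2 1.42.0, limma-voom (limma 3.58.1), other scalings, no filter and leaving out each library. The per-gene fits with nuclear copies added, those within each sex and the levels per assignable position were chosen after seeing the data. Replicate pairs differed beyond sampling noise (chi-square per degree of freedom 9.83 to 29.8, scipy 1.17.1).

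Nuclear models were matched through GENCODE M21 transcripts sharing 50 bases, and mismatches were counted in an alignment without gaps. Symbols came from GENCODE M21 (48336 of 48831 genes); 4 listed symbols found no match. All mitochondrial genes were named, and of nuclear lists genes among the 3 with the smallest p. The members, lists and tests were chosen with earlier results of these data known.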

Additional observations from a re-analysis of the deposited data

Results flagged for a closer look

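A pair of values stood apart from the other 3 libraries of their preparation by Dixon's criterion. The gene mt-Co1 held 0.219% of all counts in male flushed 1, below the other flushed libraries. The gene mt-Nd4l held 5.6e-05% of all counts in male pool 2, below the other pools, at 10.5 counts. Among the 58 groups checked, chance alone flags about 1 in 20.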

How the results depend on the processing

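No paired analysis was possible because the libraries are separate mice or pools, the pools carry numbers by listed order only, and flushed males and flushed females share 1 labelled number. With the library size over mitochondrial coding genes, 3 genes were higher and 5 lower, and differences turned negative for mt-Nd1 (-0.25), mt-Co1 (-0.0939), mt-Co2 (-0.43), mt-Nd3 (-0.0577), mt-Nd4l (-0.0025), mt-Nd4 (-0.23), mt-Nd5 (-0.50) and mt-Nd6 (-0.59), since that scaling sets the sum of the coding genes as zero. DESeq2 called 10 genes higher and 1 lower, and limma-voom 12 higher and 0 lower. Without 1 library, 10 to 13 were higher and 0 to 1 lower. Without the filter, 15 were higher, mt-Nd5 and mt-Tw among them, and in the sex comparison 1 was (mt-Rnr1). The shares of all tested genes called in the preparation comparison belong to the main fit, DESeq2 and limma-voom. They do not apply to the scaling over mitochondrial coding genes or to the fit without the filter. Over all genes, sex calls numbered 24, against 124 with DESeq2, 7 without the covariate, 784 without the filter and 8 to 25 without 1 library. Interaction calls numbered 10, against 28 with DESeq2 and 4 to 18 without 1 library. Causes were not tested. Permuting within sex, whose 36 splits give no p under 0.0556, left the differences in mitochondrial share (0.317 points) and in rRNA share (10.4 points) at an adjusted p of 0.0802. With rRNAs left out, the mitochondrial share of all counts differed by 0.171 points (adjusted p = 0.0952) and coding genes as a share of mitochondrial counts by 0.0551 points. Without 1 library the differences ranged from 0.289 to 0.330 and from 8.87 to 12.1 points, and the smallest p possible, 0.0286, missed the threshold once adjusted; complex III ranged from -0.151 to 0.208. Differences by sex, none called, changed sign without 1 library for 11 of 13 shares and kept it for mt-Rnr1 of rRNA counts (0.0843 to 1.47 points) and complex III (0.00275 to 0.419). Leaving out 1 library gives the sexes unequal numbers of flushed libraries and pools, and these differences were not adjusted for preparation. The ranges therefore mix both factors and do not show how stable a difference by sex is. The ranges of the 11 in points were -0.0969 to 0.0401 for mitochondrial, -0.0656 to 0.00109 for coding, -0.0335 to 0.0391 for rRNA and -9.4e-05 to 9.67e-06 for tRNA genes of all counts. Of mitochondrial counts they were -6.14 to 0.155 for coding, -0.142 to 6.16 for rRNA, -0.0267 to 0.0148 for tRNA and -0.00189 to 0.0272 for light-strand genes. Of coding counts they were -0.145 to 0.532 for complex I, -0.734 to 0.268 for complex IV and -0.218 to 0.0426 for complex V. The tRNA genes, mt-Atp8 and mt-Nd4l rest on the fewest counts, and whether depth accounts for their calls was not tested.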
